A study of Mus musculus with 17 samples.

Results

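The genes described here are 9 members of the JAK-STAT pathway and its feedback arm: the feedback inhibitors Socs1, Socs2, Socs3 and Cish, the STAT target kinase Pim1, the transcription factors Stat3, Stat5a and Stat5b, and the receptor-bound kinase Jak2. Their level was read in every probe set, the group of short oligonucleotides that reports a transcript on an Affymetrix array, that is annotated to 1 of these symbols alone. That gave 23 of the 45101 probe sets: 6 for Socs2, 4 for Stat3, 3 for Socs3, 2 each for Pim1, Stat5a, Stat5b and Jak2, and 1 each for Socs1 and Cish. Of the 23, 22 were above the lowest deposited intensity, 16, on at least 1 array; the Socs2 probe set 1441476_at was at that floor on all 17 arrays. Where a gene has several probe sets, its reference probe set is the one with the highest mean level over the 17 arrays.

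Hematopoietic stem cells (HSCs) of mice were sorted and their RNA was hybridized to 17 arrays in 5 groups. The sort kept cells that lack lineage antigens and CD48 and carry Sca-1, c-Kit and CD150; for fetal liver, low Mac-1 was required as well. The fetal group came from liver at E15.5 (3 arrays), with no genotype and no injection given. The adult groups were wild-type control and C/EBPa KO mice at day 7 after pIpC (3 arrays each) and at day 21 after pIpC (4 arrays each), so every adult array, control or KO, followed the pIpC injection, which mimics viral double-stranded RNA and induces interferon. The labels conflict: the titles of the KO arrays say C/EBPa KO, while their genotype field and the design text give a PU.1 knock-in, PU.1ki/ki. Groups follow the titles here. The labels name neither the driver of the deletion nor the adults' age, and do not say whether replicates were separate mice or pools, so the tests weigh differences only against the spread between the arrays, which may be technical. Fetal and adult cells differ in stage, organ, sort gate and pIpC at once, and these cannot be told apart.

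When a cytokine binds its receptor, the attached JAK kinases phosphorylate STAT factors, which enter the nucleus and switch on target genes. SOCS proteins and Cish are among the first targets, and they close the loop by blocking the receptor or the kinase. In blood-forming cells Jak2 and the STAT5 factors relay signals for survival and growth, while Socs3 is the main brake on receptors that use the gp130 chain, such as those for interleukin-6, and on the G-CSF receptor. Activated STAT3 and STAT5 dimers recognise a palindromic site. The windows searched near the start of transcription hold such letters in 2 of the members, so those stretches are shown. The promoter windows come from RefSeq (mouse build GRCm38.p6) and run from 250 bases before to 50 bases after each annotated start; 11 windows were found for 8 members and none was found for Socs2. Capitals mark each match to TTCNNNGAA, which reads the same on both strands. Position 1 is the first transcribed base.
Cish, chr9:107296654-107296683, + strand, positions -5 to 25: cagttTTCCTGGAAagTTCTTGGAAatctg
Socs3, chr11:117969501-117969530, - strand, positions -164 to -135: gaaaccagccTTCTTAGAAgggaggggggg
The Cish window held 2 matches, at 1 to 9 and at 12 to 20, which lie in the start of its transcribed 5′ end, and the Socs3 window held 1, at -154 to -146. The motif was in 2 of the 11 member windows and in 2726 of 32851 windows of all genes (8.30%), of which 150 (0.457%) held 2 or more. The core TTGCNNAA, searched on both strands as the type of site that C/EBP factors bind, was in none of the 11 windows and in 10.8% of all windows. A match describes letters and shows no binding.

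Over the arrays 20.4% to 25.2% of probe sets lay at the floor and the median intensity was 39.4 to 53.1. The median was 39.4 to 47.7 in control day 21 and 46.9 to 49.5 in KO day 21. Control day 21 replicate 3 had the lowest median and the largest share at the floor. The ratio of 3′ to 5′ control probes, a sign of RNA length, ran from -0.40 (log2) on control day 21 replicate 3 to 0.52 on fetal replicate 2. Cebpa, which encodes C/EBPa, had intensities of 115 to 532 on the 7 adult control arrays and 20.7 to 39.8 on the 7 KO arrays, with no overlap; the difference averaged over both days was -2.78 (SE 0.36, adjusted p = 0.0418, limma). Spi1, which encodes PU.1, differed by 0.34 at day 7 and -0.03 at day 21. Cd48, the gene of a marker that the sort selected against, was at 99.5 to 210 in fetal liver (lowest and highest array), 16 to 18.8 in control day 7, 60.9 to 283 in KO day 7, 18.6 to 658 in control day 21 and 90.3 to 308 in KO day 21. Two-sided tests were made with limma on log2 intensities over all 40023 probe sets above the floor on at least 1 array, and a probe set is said to rise or fall only at a Benjamini-Hochberg adjusted p below 0.05.

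The question of the first comparison was how fetal liver HSCs differ from adult ones, with the control groups of both days as the adult side. Socs3 was the member that differed most. All 3 of its probe sets were near the floor of 16 on most fetal arrays and far above it on every adult array, and fell in fetal liver by 24.5 to 43.7 times. One Stat3 probe set was lower as well, by 2.34 times. Cish, another Stat3 probe set, both Stat5a probe sets and Stat5b 1422102_a_at pointed the same way without passing the test. The other Stat5b probe set differed the opposite way, by 0.73. Of the 22 member probe sets 4 were called, all lower in fetal liver; over all probe sets 3.07% were called and 1.61% were called lower. Since 3 of the 4 report 1 gene, Socs3, they are not independent. The median difference of the members was -0.45, against -0.0032 over all probe sets tested. RNA was pooled from many cells, so fewer expressing cells and less RNA per cell cannot be told apart.

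Socs3 is a feedback inhibitor that binds both gp130-type receptors and JAK kinases. Its probe set 1416576_at had intensities of 23.7, 26.2 and 31.7 on the 3 fetal arrays, 887, 1116 and 749.8 in control day 7, 450.3, 209 and 241 in KO day 7, 441, 644, 268 and 724 in control day 21, and 258, 325, 133 and 540 in KO day 21. Every fetal array lay below every one of the 14 adult arrays, and the fetal values lay close together while the day 21 groups were spread widely. The fetal minus adult control difference was -4.62 (log2, SE 0.40, adjusted p = 2.0e-05, limma), which is 24.5-fold more signal in adult cells (95% interval 13.5 to 44.5).

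The reference probe set of Socs3, 1455899_x_at, gave 23.1, 16 and 200.1 in fetal liver, 2195, 1942 and 2242 in control day 7, 2631, 1006 and 1228 in KO day 7, 1285, 1914, 774 and 1097 in control day 21, and 1343, 1609, 902 and 1158 in KO day 21. The fetal arrays again lay below all adult arrays, with fetal replicate 3 apart from the other fetal arrays. The difference was -5.25 (SE 0.60, adjusted p = 2.4e-04, limma), or 38.0-fold (15.4 to 93.8). The third probe set, 1456212_x_at, gave 16.5, 16 and 81.9 in fetal liver, 1763, 1458 and 1647 in control day 7, 782, 485 and 587 in KO day 7, 923, 1153, 601 and 1095 in control day 21, and 733, 959, 652 and 1108 in KO day 21. It differed by -5.45 (SE 0.42, adjusted p = 7.3e-06, limma), or 43.7-fold (23.3 to 81.9). The suffix x marks probe sets of which some probes can also match other sequences, and the signal of fetal replicate 3 was above that of the other fetal arrays most clearly in these. With 1 fetal array at the floor in each of them, the folds of both depend on that floor. They also depend on single fetal arrays: without fetal replicate 3 the differences were -6.38 and -6.23, and without fetal replicate 2 that of 1455899_x_at was -4.55.

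Socs3 was also lower in fetal liver than in each adult group taken alone. Probe set 1416576_at differed by -5.07 from control day 7, -3.39 from KO day 7, -4.16 from control day 21 and -3.37 from KO day 21 (limma, highest adjusted p 0.0024). The other Socs3 probe sets differed by between -4.44 and -5.86 (highest adjusted p 0.0024). In these comparisons 1.96%, 1.01%, 2.21% and 1.57% of all probe sets were called. The comparisons share the fetal arrays.

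**Figure D1:**
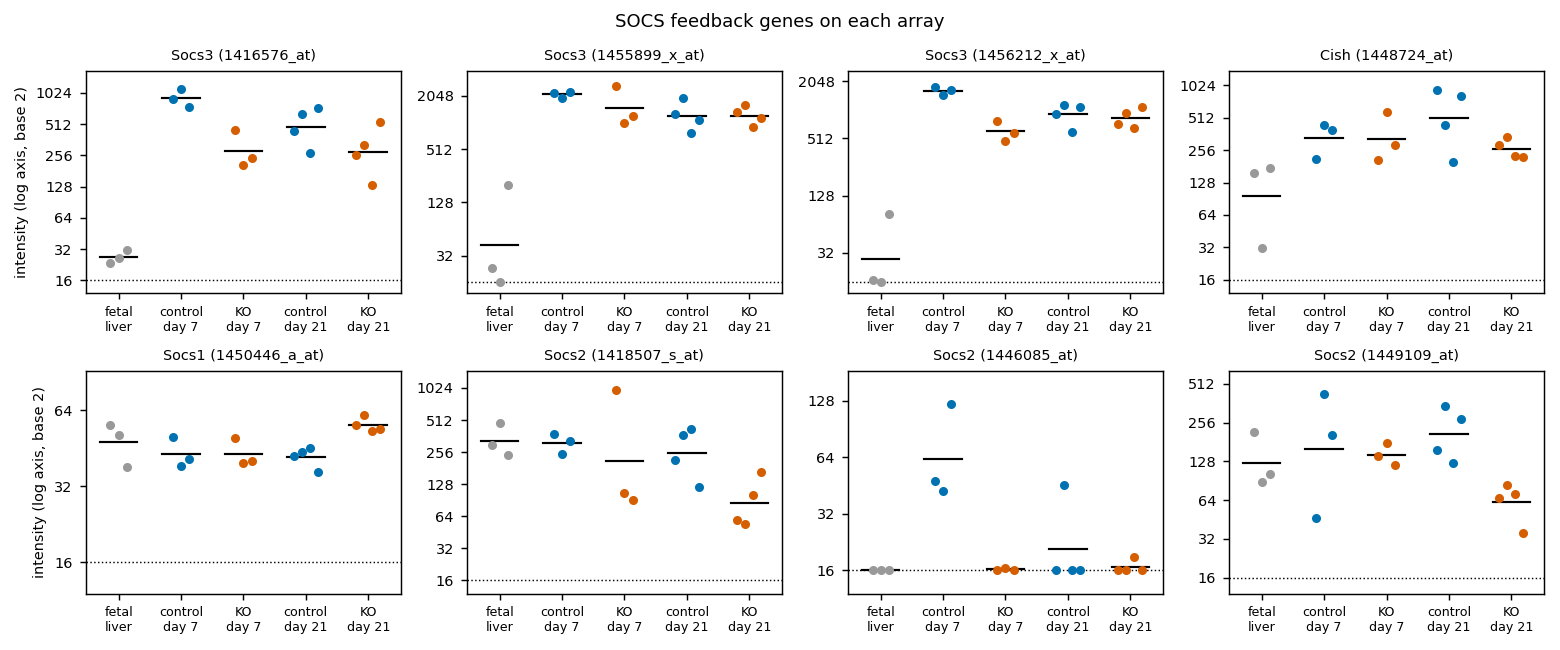
Intensity (log axis, base 2) of the feedback inhibitors Socs3, Cish, Socs1 and Socs2 on each of the 17 arrays, by group; points are arrays, horizontal lines are the group means of log2 values, and the dotted line is the floor of 16. Each of the 3 Socs3 probe sets has its fetal arrays below all 14 adult arrays, while Socs1 stays between 36.4 and 61.2 on every array.

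Cish binds activated cytokine receptors and competes with STAT5 there. Its only probe set gave 156, 31.7 and 174 in fetal liver, 209, 436 and 394 in control day 7, 209, 580 and 282 in KO day 7, 930, 439, 198 and 808 in control day 21, and 284, 338, 227 and 219 in KO day 21. All 3 fetal arrays were below all 14 adult arrays, as for 5 of the 22 member probe sets (Socs3 with 3, Cish, and Stat5b 1422102_a_at); over all probe sets 1.35% had this order. The fetal minus adult control difference of Cish was -2.10 (SE 0.57) and did not pass, with an adjusted p of 0.0670 (limma). Control day 21 replicate 3, the array with the lowest 3′ to 5′ ratio, had the lowest Cish of its group, and without it Cish was called (-2.33, adjusted p = 0.0299). Fetal replicate 2, the array with the lowest Cish of all, had the highest 3′ to 5′ ratio (0.52). Without it the difference was -1.31 (adjusted p = 0.269, limma).

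Socs1, which blocks JAK kinases directly and is best known as the brake on interferon signalling, lay between 36.4 and 61.2 on all 17 arrays. Its fetal minus adult control difference was 0.18, with an adjusted p above 0.05 (limma). Socs2, the brake on growth hormone and other STAT5 signals, gave 296, 475 and 238 in fetal liver in its reference probe set 1418507_s_at, against 376, 247 and 326 in control day 7 and 213, 374, 420 and 120 in control day 21. These groups overlapped, and the difference was 0.20. A second Socs2 probe set, 1446085_at, was at the floor on all 3 fetal arrays and on 10 of the 14 adult arrays or within 3 units of it; only control day 7 (48.1, 42.3 and 123) and control day 21 replicate 2 (45.3) stood above. Its difference of -1.18 had an adjusted p of 0.0865 (limma), and against control day 7 alone it was called (-1.98, adjusted p = 0.0225); with the fetal group wholly at the floor, that value is no measure of size. The Socs2 probe sets 1438470_at and 1442586_at lay near the floor in most groups.

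Stat3 relays interleukin-6, G-CSF and related signals, and Socs3 is one of its targets. Its reference probe set 1426587_a_at gave 449, 458 and 903 in fetal liver, 1629, 1238 and 1169 in control day 7, 1266, 1957 and 1222 in KO day 7, 1587, 1048, 1465 and 1305 in control day 21, and 1188, 1578, 882 and 1712 in KO day 21. The fetal arrays lay below all 7 adult controls, an order that 2.78% of all probe sets had. Fetal replicate 3 lay above 1 KO day 21 array. The difference was -1.22 (SE 0.27, adjusted p = 0.0243, limma), or 2.34-fold more signal in adult controls (95% interval 1.57 to 3.48). The call was lost without fetal replicate 1 (-1.05, adjusted p = 0.102) and without fetal replicate 2 (-1.07, adjusted p = 0.119).

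A second Stat3 probe set, 1459961_a_at, gave 552, 154 and 144 in fetal liver against 1000, 928 and 667 in control day 7 and 829, 832, 358 and 404 in control day 21. Fetal replicate 1 lay among the adult values and the other fetal arrays below them. The difference was -1.59 with an adjusted p of 0.0720 (limma), and it was called without fetal replicate 1 (-2.22, adjusted p = 0.0074). The third, 1460700_at, differed by -0.36 (adjusted p = 0.514), and 1424272_at stayed between 41.0 and 83.9 on all arrays. The Stat3 probe sets thus gave unlike sizes of difference.

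Stat5a and Stat5b are close homologues that carry cytokine and growth hormone signals. Stat5a 1421469_a_at gave 824, 680 and 380 in fetal liver and 756 to 1169 on the adult control arrays, a difference of -0.60 (adjusted p = 0.257, limma). Stat5a 1450259_a_at gave 67.2, 832 and 176 in fetal liver and 531 to 1511 in the adult controls, a difference of -1.86 (adjusted p = 0.110). Fetal replicate 2 was the array that lay among the adults there, and without it the probe set was called (-2.84, adjusted p = 0.0041). Without fetal replicate 1, the lowest array, the difference was -1.02 (adjusted p = 0.398).

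Stat5b 1422102_a_at gave 152, 144 and 131 in fetal liver, 223, 215 and 293 in control day 7, 204, 396 and 324 in KO day 7, 293, 458, 207 and 345 in control day 21, and 266, 164, 510 and 282 in KO day 21. The 3 fetal arrays were the lowest of all 17, yet the difference of -0.95 did not pass (adjusted p = 0.135, limma). The other Stat5b probe set, 1422103_a_at, differed the opposite way, by 0.73 (adjusted p = 0.523).

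Jak2 is the kinase bound to the growth hormone receptor and several cytokine receptors. Its reference probe set 1421066_at spread widely within groups: 259, 824 and 597 in fetal liver, 192, 733 and 131 in control day 7 and 160, 229.5, 416 and 599.8 in control day 21. The difference was 0.82 (adjusted p = 0.589, limma), and 1421065_at differed by -0.11. Pim1 is a survival kinase induced by STAT5. Its reference probe set 1435458_at gave 1449, 1194 and 1761 in fetal liver, 1537 to 2393 on the adult control arrays, 1832, 1800.2 and 2240 in KO day 7 and 2096, 1807, 2055 and 2580 in KO day 21. Fetal and control arrays overlapped, with a difference of -0.31 (adjusted p = 0.379, limma). Fetal liver differed by -0.43 from KO day 7 (adjusted p = 0.439) and by -0.55 from KO day 21 (adjusted p = 0.197, limma), which did not pass. The other Pim1 probe set, 1423006_at, lay between 77.8 and 156 on all arrays.

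**Figure D2:**
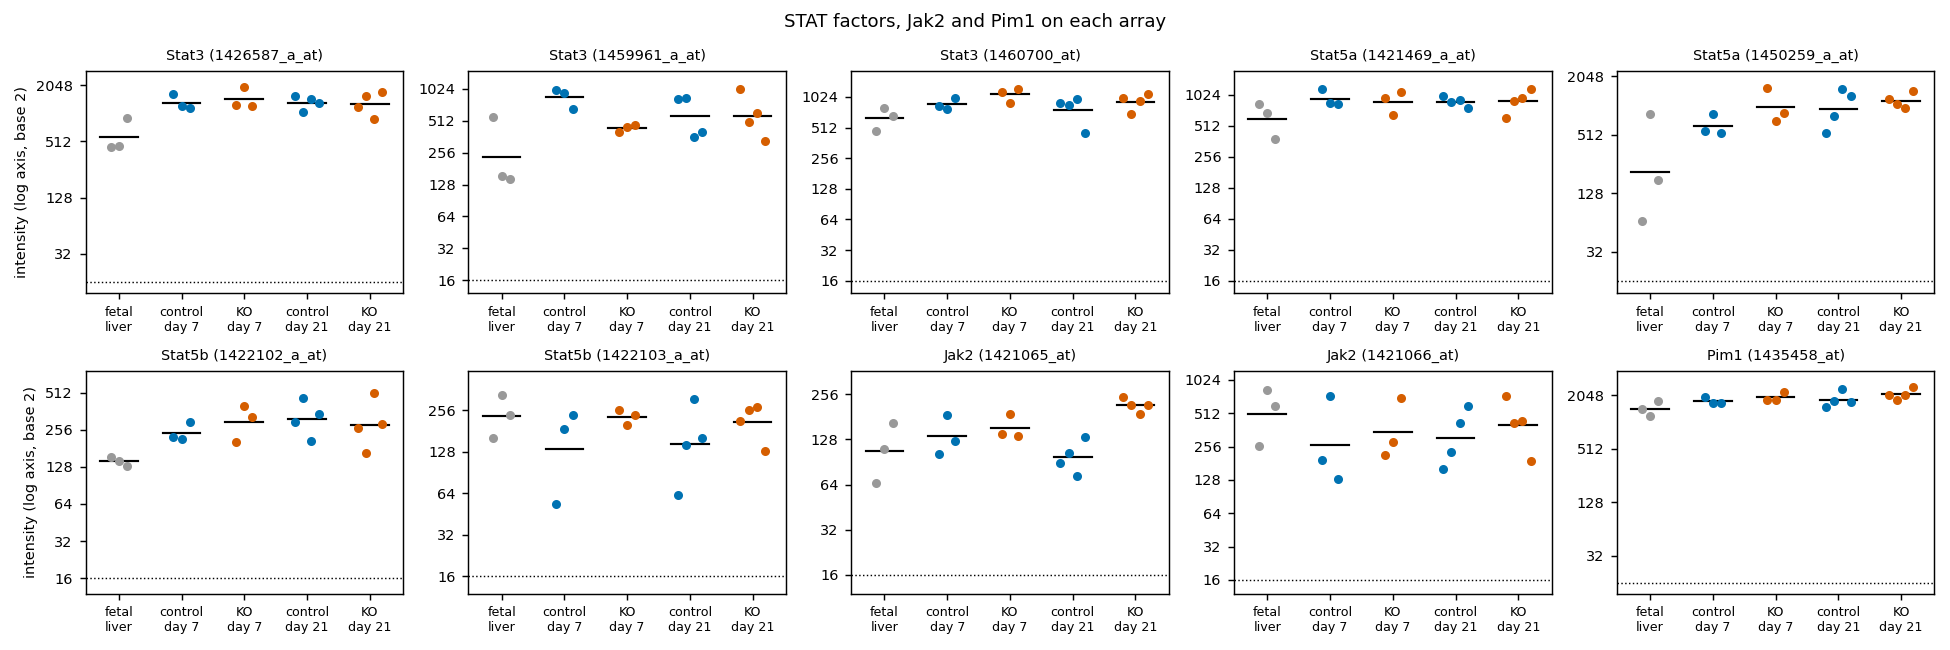
Intensity (log axis, base 2) of probe sets of Stat3, Stat5a, Stat5b, Jak2 and Pim1 on each of the 17 arrays, by group; points are arrays, horizontal lines are the group means of log2 values, and the dotted line is the floor of 16. The 3 fetal arrays are the lowest of all in Stat5b 1422102_a_at (131 to 152), and the 4 KO day 21 arrays lie above all day 21 controls in Jak2 1421065_at (189 to 244 against 73.4 to 133.5).

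Markers of some other cell types moved with the fetal group. Of the hepatocyte markers measured, 3 of 8 were higher in fetal liver than in adult control, and their summed intensity was 846, 11682 and 7723 on the fetal arrays against 426 to 1184 on the adult arrays. Of the endothelial markers 5 of 10 were higher (summed 3296 to 15381 against 1165 to 1939), of the neutrophil markers 3 of 10 (5067 to 40133 against 1016 to 5728), of the macrophage markers 4 of 10 (3124 to 4927 against 259 to 1211) and of the erythroid markers 4 of 8 (5908 to 8375 against 945 to 8608). Among the markers of the HSC state 2 of 9 fell, Gata2 (-1.59) and Meis1 (-1.19). Of the megakaryocyte markers 1 of 9 fell. Among the markers of B cells, of T and NK cells, and of mast cells and basophils 0 were called. Over all reference probe sets 1.65% were called higher in fetal liver and 1.67% lower. Fetal replicate 1 had a hepatocyte sum within the adult range. It also had the highest neutrophil sum (40133), the highest macrophage sum (4927) and an endothelial sum (3296) above every adult array. With it as the only fetal array, a choice made after seeing the data, Socs3 differed by -4.81, -6.11 and -6.20. A single array gives no spread of its own. The part of the hepatocyte, neutrophil, macrophage, endothelial and erythroid signal in the Socs3 difference was not tested. With fetal replicate 1 alone Cish differed by -1.39.

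The rest of the pathway was read from gene lists, 1 reference probe set per gene; over all 16784 genes tested that way 3.32% were called in fetal liver and the median difference was 0.02. Of the other SOCS, JAK and STAT genes 0 of 10 were called, with a median of -0.02; the smallest p belonged to Jak1, the partner of gp130 (0.74, adjusted p = 0.0987, limma). Among the other inhibitors, tyrosine phosphatases, PIAS proteins and adaptors, 0 of 13 were called (median -0.05), with Ptpn1 at -0.86 (adjusted p = 0.174). Among 14 cytokines 0 were called (median -0.16), with Il11, a gp130 cytokine, at -0.54 (adjusted p = 0.0569). Of 24 receptor genes 1 was called: Csf3r, the G-CSF receptor that Socs3 restrains, fell by 1.04 (adjusted p = 0.0408). The next receptors by p were Il10rb (1.07, adjusted p = 0.0736) and Lifr, a partner of gp130 (1.77, adjusted p = 0.135).

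Known targets of STAT3 and STAT5 lay lower on balance: 3 of 20 were called, all lower, and the median difference was -0.88. The called ones were Fosl1 (-2.26, adjusted p = 0.0036) and Junb (-1.96, adjusted p = 0.0037), which encode AP-1 subunits, and the survival gene Bcl2 (-1.95, adjusted p = 0.0308, limma). Junb is also among the immediate early genes, the transcripts induced within minutes by many stimuli and by cell handling. Of these 12 of 18 fell in fetal liver, with a median of -1.72. Egr1 fell by 2.78, Fosb by 3.32, Jun by 1.79 and Zfp36 by 1.12, the highest adjusted p of these being 1.9e-04 (limma). Their summed intensity was 16448 to 26886 on the fetal arrays, 71250 to 79207 in control day 7, 55884 to 67950 in KO day 7, 50205 to 62853 in control day 21 and 54580 to 57861 in KO day 21. The immediate early genes thus moved with Socs3 between fetal and adult arrays; their part in the Socs3 difference was not tested.

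**Figure D3:**
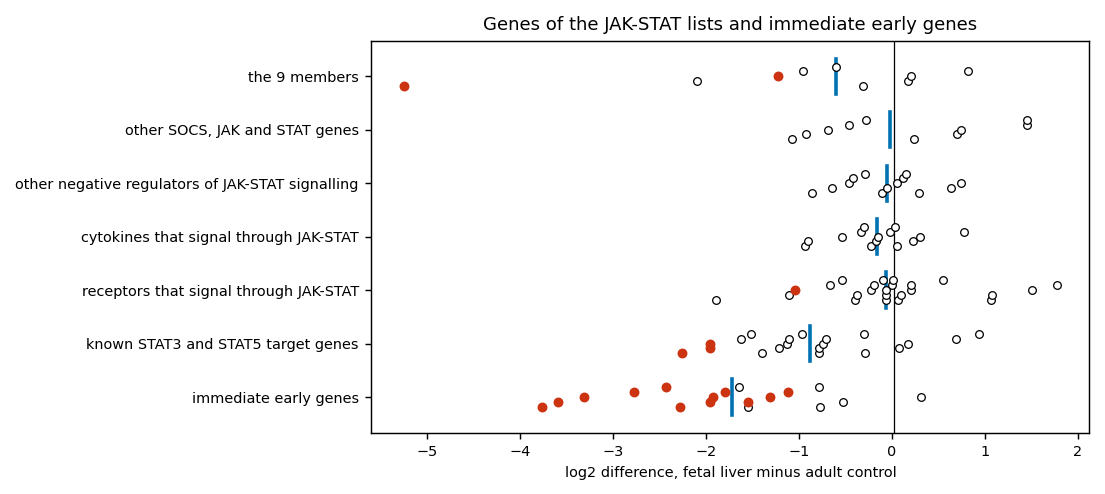
Fetal liver minus adult control difference (log2) of each gene's reference probe set, for the 9 members and the 6 lists; filled points passed an adjusted p of 0.05, blue bars are list medians and the thin line is the median of all genes. Filled points lie to the left in the rows of the members (2), receptors (1), STAT targets (3) and immediate early genes (12), and the other 3 rows have none.

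The second question was what the loss labelled C/EBPa KO does to these genes. At day 7 no member passed: 0 of 22 were called, against 0.0025% of all probe sets (1 of 40023). At an unadjusted p below 0.05 there were 3 of 22 members (13.6%), all lower in KO, against 6.69% of all probe sets in either direction and 3.13% lower. The 3 were Socs3 1416576_at (-1.68, SE 0.47, adjusted p = 0.481), Socs3 1456212_x_at (-1.42, SE 0.50, adjusted p = 0.612) and Socs2 1446085_at (-1.96, SE 0.40, adjusted p = 0.285, all limma). The Socs3 probe sets report 1 gene, so they are not independent. Among the 9 reference probe sets 0 had an unadjusted p below 0.05 (limma), against 6.67% of all genes tested that way.

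In both of those Socs3 probe sets the KO day 7 arrays (209 to 450 and 485 to 782) lay below all day 7 controls (750 to 1116 and 1458 to 1763). The reference probe set of Socs3 did not separate the groups: KO day 7 replicate 1, at 2631, was above every control while replicates 2 and 3 were at 1006 and 1228; its difference was -0.52 (95% interval -2.06 to 1.02). In Socs2 1446085_at the KO arrays lay at the floor or within 1 unit of it, so its difference is no measure of size. With Stat3 1459961_a_at (-0.96, adjusted p = 0.814; 398 to 467 in KO against 667 to 1000), 4 member probe sets had KO below all controls, against 6.24% of all probe sets. Cish differed by -0.02 (95% interval -1.47 to 1.42), Socs1 by 0.00 (-0.35 to 0.35) and Stat3 1426587_a_at by 0.12 (-0.56 to 0.80). The interval of Cish includes changes of well over 1 log2 unit in either direction.

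At day 21 again 0 of 22 members were called, against 0.03% of all probe sets (12 of 40023). At an unadjusted p below 0.05 there were 4 of 22 (18.2%, against 9.35% of all): 2 higher and 2 lower in KO. The 2 lower ones both report Socs2, so they are not independent. Among the 9 reference probe sets 1 was higher and 1 lower at that p (limma), against 10% of all genes in either direction. Jak2 1421065_at gave 244, 219, 189 and 218 in KO against 89.8, 104, 73.4 and 133.5 in control, with no overlap and the least spread of the 5 groups in KO. The difference was 1.15 (SE 0.27, adjusted p = 0.205, limma). It was 0.79 to 1.15 under the alternatives and 1.01 to 1.30 with an array left out. The other Jak2 probe set differed by 0.37 with overlapping arrays.

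Socs1 gave 56.1, 61.2, 52.9 and 53.9 in KO day 21 against 42.4, 43.7, 45.4 and 36.4 in control, a small difference without overlap (0.42, SE 0.14, adjusted p = 0.351, limma). These 2 were the members with KO above all controls, an order that 3.13% of all probe sets had. Socs2 lay lower in both of its well-measured probe sets. In 1449109_at the KO arrays were 66.0, 84.3, 71.6 and 35.6 against 158, 346, 123 and 274 (-1.76, SE 0.58, adjusted p = 0.341), without overlap; 2.03% of all probe sets had KO below all controls. In the reference probe set they were 58.8, 53.7, 102 and 165 against 213, 374, 420 and 120 (-1.56, SE 0.67, adjusted p = 0.499), with overlap. At day 7 the same reference probe set had 986, 107 and 91.0 in KO, with replicate 1 far above the other arrays.

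Socs3 at day 21 differed by -0.80, 0.03 and -0.12 in its 3 probe sets, and Cish by -0.94 (95% interval -2.20 to 0.31, adjusted p = 0.670, limma). In Cish the KO arrays (219 to 338) lay within the span of the controls (198 to 930). Stat3, Stat5a, Stat5b and Pim1 differed by between -0.18 and 0.52 at day 21 over their 10 probe sets. At day 21 the median difference of 8 erythroid markers was 1.27 and that of 9 megakaryocyte markers 1.67, and at day 7 they were 1.57 and 0.54, with 0 called. The summed megakaryocyte intensity was 4345 to 8143 in KO day 21 and 9088, 1253, 1322 and 2283 in control day 21. Only control day 21 replicate 1 lay above any KO day 21 array. At day 21, 7 of the 9 megakaryocyte and 3 of the 8 erythroid markers were higher in KO at an unadjusted p below 0.05 (limma). Over all genes tested that way 6.05% were. Of 10 neutrophil markers, 10 had a negative difference at day 21 (median -0.92) and 8 at day 7 (median -0.56), with 0 called. Over all 16784 genes 8035 differences were negative at day 21 and 7956 at day 7. Markers of the same cell type are not independent. The summed T and NK cell intensity was 548 to 1064 in KO day 21 and 265 to 427 in control day 21. That of mast cells and basophils was 307 to 389 and 209 to 258. Of 7 T and NK cell markers 4 were higher and 3 lower, and of 6 mast cell and basophil markers 3 and 3. Of 9 HSC markers, 7 had a negative difference at day 21 (median -0.41). In these lists 0 were called. The part of all these markers in the KO values of the members was not tested.

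**Figure D4:**
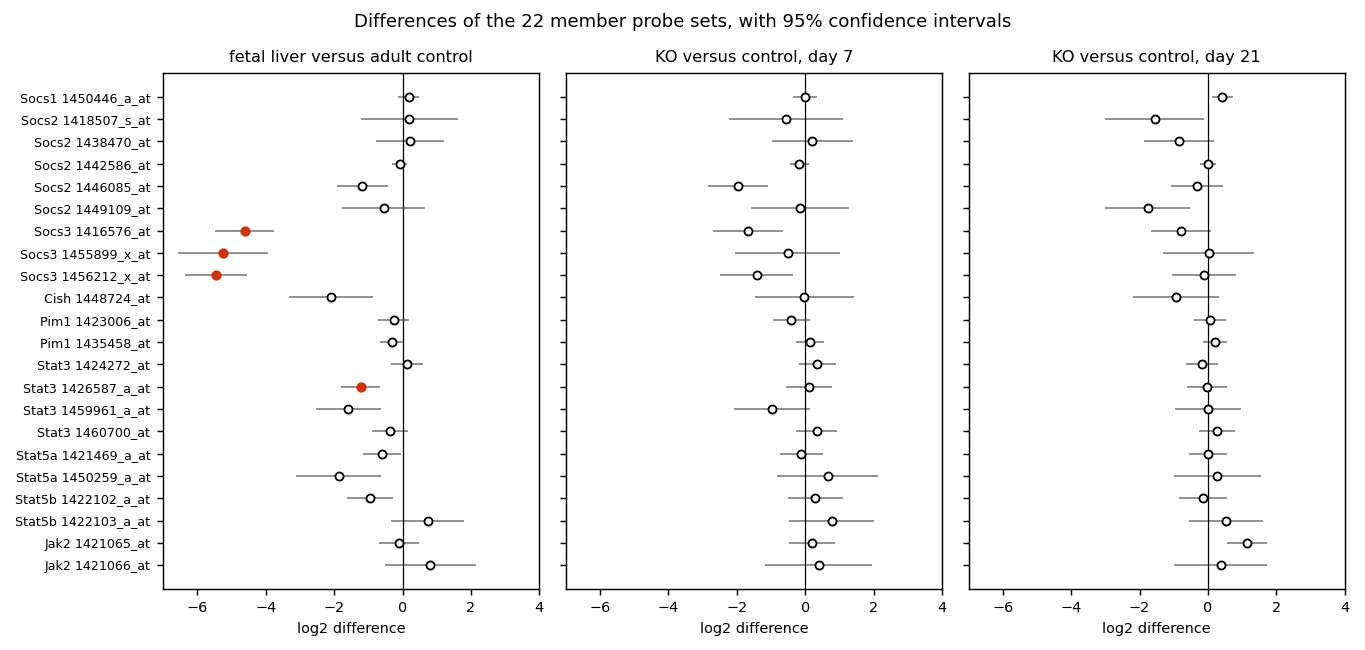
Differences (log2) of the 22 member probe sets with 95% confidence intervals from the limma fit, for fetal liver against adult control and for KO against control at day 7 and at day 21; filled points passed an adjusted p of 0.05. The 4 filled points, 3 of Socs3 and 1 of Stat3, are all in the fetal comparison, and the day 7 and day 21 panels have none.

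With both days averaged, 0 of 22 members were called, against 0.0275% of all probe sets, and 5 had an unadjusted p below 0.05 (22.7%, against 10.7%). The one with the lowest adjusted p, Socs2 1446085_at, was at -1.14 (adjusted p = 0.154), followed by Socs3 1416576_at at -1.24 (SE 0.31, adjusted p = 0.186, limma). The others were Jak2 1421065_at (0.67), Socs2 1449109_at (-0.96) and Socs3 1456212_x_at (-0.77). Probe sets of the same gene, Socs2 or Socs3, are not independent. Among the 9 reference probe sets 0 had an unadjusted p below 0.05 (limma), against 11.7% of all genes tested that way. The test of whether the KO effect differed between the days called 0 of 22 members, against 0.0025% of all probe sets. Jak2 1421065_at, higher in KO by 1.15 at day 21 and 0.19 at day 7, had an effect larger by 0.96 at day 21 with an unadjusted p of 0.0386 and an adjusted p of 1 (limma). For Socs2 1446085_at the effect differed by 1.65 (unadjusted p = 0.0085, adjusted p = 0.981, limma). Its KO arrays lay at 16 to 18.8 on both days, and 3 of the 4 day 21 controls were at the floor. Neither this value nor the averaged -1.14 is therefore a measure of size.

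Between the control groups themselves, day 21 against day 7, 0 of 22 members were called, against 0.05% of all probe sets, and 1 had an unadjusted p below 0.05 (4.55%, against 7.53%). The Socs3 probe sets lay lower at day 21 by -0.90, -0.82 and -0.82. In all 3 of them every day 21 control was below every day 7 control (highest day 21 value 1914 against lowest day 7 value 1942 in 1455899_x_at); no other member had that order, and 3.42% of all probe sets did. Control day 7 was thus the group with the highest mean in each of the 3 Socs3 probe sets. Socs2 1446085_at differed by -1.60 (adjusted p = 0.280, limma). Without control day 21 replicate 2 it was called (-1.98, adjusted p = 0.0285), but the day 21 controls then lay wholly at the floor, so the call rests on the floor and the value is no measure of size.

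The lists gave the same counts for KO. At both days 0 genes were called among the other SOCS, JAK and STAT genes, the other inhibitors, the cytokines, the receptors, the STAT targets and the immediate early genes; of all 16784 genes 0 (0%) were called at day 7 and 4 (0.0238%) at day 21. The smallest p at day 7 belonged to the STAT target Vegfa (-1.68, adjusted p = 0.603, limma), to the ubiquitin ligase Cbl (-0.98, adjusted p = 0.653) and to Fosl1 (-1.14, adjusted p = 0.654). At day 21 it belonged to Usp18, which restrains the interferon receptor (2.16, adjusted p = 0.177), to the immediate early gene Egr2 (2.87, adjusted p = 0.205), to the cytokine subunit gene Il12a (2.02, adjusted p = 0.326) and to the receptor gene Il10rb (0.96, adjusted p = 0.330). Stat2, a transcription factor of the interferon response, was at 1.18 (adjusted p = 0.580).

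Ordered by mean log2 level, Socs3 was lowest in fetal liver in each probe set, and that lowest step was the only one between neighbouring groups that passed. For 1416576_at the means were 4.76 ± 0.21 (SD, n = 3) in fetal liver, 8.12 ± 0.84 (n = 4) in KO day 21, 8.15 ± 0.59 (n = 3) in KO day 7, 8.92 ± 0.65 (n = 4) in control day 21 and 9.82 ± 0.29 (n = 3) in control day 7. The step from fetal liver to KO day 21 was 3.37 (adjusted p = 9.9e-04, limma), and no step among the adult groups was called, although every day 21 control was below every day 7 control (step of 0.90, adjusted p = 0.679). For Cish the order was fetal liver at 6.57 ± 1.38, KO day 21 at 8.04 ± 0.29, KO day 7 at 8.34 ± 0.76, control day 7 at 8.37 ± 0.57 and control day 21 at 8.98 ± 1.02, and no neighbouring step passed. The same held for every other member: no step between neighbours in the order was called.

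The genes most like a member were sought among 12109 genes by the root mean square difference between the 5 group means, each centred on its own mean. For Socs3, whose reference probe set spanned 5.66 log2 units, the nearest were Rgs1, a regulator of G-protein signalling (0.16), Muc13, a membrane mucin (0.35), and Skil, an inhibitor of TGF-beta signalling (0.37). For Cish, which spanned 2.41, they were Mex3b (0.14), Siah2 (0.15) and Rab6b (0.17), and for Socs2, which spanned 1.92, Cd2bp2 (0.16), Scai (0.17) and Adnp2 (0.19). Socs1 and Pim1 spanned only 0.42 and 0.55, and their nearest genes were Art5, Arhgef1 and Arid1a (0.04 to 0.05) and Gsap, Coa5 and Brd1 (0.03 to 0.04). These likenesses rest on 5 means from 17 arrays and describe them only.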

How the data were processed

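RNA from 17 samples of sorted mouse HSCs was measured on Affymetrix arrays. The authors' deposited table holds intensity per probe set on a linear scale with a floor of 16. Per the submitters' processing notes RMA was used, with no version; how the floor and any further scaling arose is not stated in the sources used here. Gene names came from the platform annotation: 34958 probe sets had 1 gene and 932 several; without a single gene, 10092 besides the 64 controls are unnamed here. Members and gene lists were chosen with earlier results of these data known. Log2 of the intensity, without a pseudocount, was fitted with limma 3.58.1 in R 4.3.3 with 5 group means over all 17 arrays (12 residual degrees of freedom), and p-values were adjusted by Benjamini-Hochberg over 40023 probe sets. The adult control is the mean of both control groups. The fit was tested on simulated data. The named genes are all member probe sets, up to 4 called or otherwise up to 3 genes of smallest p per list, and the 3 most like genes for feedback members and Pim1. The number of arrays limits the precision. Genes without a probe set of 1 gene were not analysed here. Alternatives covered scaling, filters, pseudocount, probe set choice, weights, covariates, a replicate block and leaving out each array.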

Additional observations from a re-analysis of the deposited data

Results flagged for a closer look

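Of 42 groups of 4 arrays examined among the member probe sets, 3 held an array far from the others by Dixon's test at the 95% level, which chance gives in about 1 in 20 groups. All are Socs2 probe sets near the floor of 16. In 1438470_at, KO day 21 replicate 3 was at 19.4. In 1446085_at, KO day 21 replicate 3 was at 18.8 and control day 21 replicate 2 at 45.3, with the other arrays of both groups at the floor. With those arrays tied, any array above the floor is flagged, so the rate of 1 in 20 does not apply there.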

How the results depend on the processing

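None of the differences recomputed changed sign under the alternatives run. The count of members called in fetal liver was 4 in the reported fit and 2 to 5 under the alternatives: 5 when only probe sets above the median were kept, 3 with only the arrays compared, with array weights and with the 3′ to 5′ ratio as a covariate, and 2 with 1 probe set per gene, since only 9 member probe sets were then tested. Leaving out 1 array gave 4 to 5 in the fetal comparison and 0 to 1 between the control days. KO comparisons called 0 members in every alternative. The 3 Socs3 probe sets were called in fetal liver under every alternative run, with an adjusted p of at most 0.0154 (limma). The Stat3 probe set 1426587_a_at lost its call when only the arrays compared were fitted (adjusted p = 0.0739), with array weights (0.0832), with the 3′ to 5′ ratio as a covariate (0.0518) and against control day 7 alone (0.0681); the cause was not tested. Cish was called when only probe sets above the median were kept (0.0445). Using fetal replicate 1 as the one fetal array was chosen after seeing the data, and Stat5a 1450259_a_at then differed by -3.53.

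Samples with the same replicate number showed little shared deviation (correlations of -0.03 to 0.08), and the reported fit did not pair them. With so few arrays per group, these correlations cannot exclude a pairing. With the replicate block 4 members were called in the fetal comparison: Stat3 1426587_a_at lost its call (-1.19, adjusted p = 0.0672) and Stat3 1459961_a_at gained one (-1.69, adjusted p = 0.0298); over all probe sets the day 21 count went from 12 to 0. Counts over all probe sets moved more: day 7 from 1 to 0 to 6 over the alternatives and 4 to 11 with an array left out, day 21 from 12 to 0 to 14 and 0 to 56, both days from 11 to 0 to 61 and 2 to 27, the difference between days from 1 to 0 to 3 and 1 to 5, fetal from 1228 to 486 to 1344 and 846 to 1375, and the control days from 20 to 5 to 21 and 9 to 44. Centring each array on its median moved the median of all probe sets by up to 0.16 (at day 21 from 0.01 to -0.15), and the share of calls higher in KO over both days was 63.6% as deposited, 40.0% centred and 33.3% after quantile normalization.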
